A study of Mus musculus with 7 samples.

Results

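The MHC class II presentation genes are the 10 genes H2-Aa, H2-Ab1, H2-Eb1, H2-DMa, H2-DMb1, H2-DMb2, H2-Oa, H2-Ob, Cd74 and Ciita, chosen by name and not by any measured value, out of 48795 genes in the count table. All 10 passed the filter on low counts and were among the 11618 genes tested. They were measured by bulk RNA sequencing of light zone germinal centre B cells, sorted from mouse spleen 10 days after intravenous injection of sheep red blood cells, an antigen widely used to raise germinal centres. There were 3 libraries labelled MIZ1KO, whose titles carry the word MizFF, and 4 labelled Control, whose titles carry the word eYFP. MIZ1 is a zinc finger transcription factor that partners MYC and is encoded by Zbtb17. All 7 libraries came from immunised mice. The sources used here do not give the strain, the age, the sort gate, the Cre driver or the deleted part of the gene. They call the libraries of a group replicates without tying each to a separate mouse, so the p-values speak only of the spread between these libraries, which may be technical.

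MHC class II molecules display peptides from engulfed antigen to CD4 T cells. In the light zone a B cell takes up antigen through its receptor, loads its peptides onto class II and is selected by the T cell help that this display attracts. An alpha and a beta chain assemble on the invariant chain CD74, which blocks the groove until endosomal proteases cut it down to a short remnant, H2-DM then swaps that remnant for antigen peptide, and H2-O holds H2-DM back. The co-activator CIITA switches the set on by docking on factors bound to the X and Y boxes of their promoters.

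Because the genes share this promoter architecture, the bases around the Y box are shown for those members whose RefSeq promoter window (GRCm38.p6) holds its core, written ATTGG on the coding strand, within 120 bases before the start site. Capitals mark ATTGG and, upstream of it, GCAAC, the core letters of the X box.
H2-Aa: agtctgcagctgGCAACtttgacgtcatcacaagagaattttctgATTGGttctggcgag
H2-Eb1: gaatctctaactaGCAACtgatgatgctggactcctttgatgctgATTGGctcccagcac
H2-Oa: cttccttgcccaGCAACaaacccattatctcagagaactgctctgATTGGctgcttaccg
H2-Ob: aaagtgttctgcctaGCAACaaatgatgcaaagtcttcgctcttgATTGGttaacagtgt
H2-DMb1: tgatgctaggctgattcactcagtgATTGG
H2-DMb2: tgatgctaggctaagtcacttagtgATTGG

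All of these lie on chromosome 17. The H2-Aa stretch is on the minus strand at chr17:34287857-34287916, and the plus strand holds those of H2-Eb1 (chr17:34305763-34305822), H2-Oa (chr17:34092291-34092350), H2-Ob (chr17:34238803-34238862), H2-DMb1 (chr17:34153105-34153134) and H2-DMb2 (chr17:34145134-34145163). ATTGG began 48 bases before the start site in H2-Aa, 59 in H2-Eb1, 43 in H2-Oa, 57 in H2-Ob, 61 in H2-DMb1 and 90 in H2-DMb2. Start sites are those of RefSeq. GENCODE transcripts of H2-DMb1 and H2-DMb2 begin further upstream, at 34153072 and 34143307, so both of these stretches lie inside a GENCODE gene and are kept to 30 bases, and the last bases of the H2-Oa stretch pass its GENCODE start at 34092340. Promoter windows of 300 bases, 250 before and 50 after the start site, matched 7 members, H2-DMa with alternative start sites, and were not used for H2-Ab1, Cd74 and Ciita. The letters CCAAT on either strand occurred in 7 of the 7, against 37.4% of all 32851 windows. The longer X box core GCAACNG occurred in H2-Eb1 alone of the 7, against 12.7% of all windows. The shorter GCAAC, chosen after the sequences were seen, occurred in 5 of the 7, against 35.2% of all windows. A member counted if any of its windows matched, whereas the background counts single windows. For H2-DMa, window 1 held GCAAC but not CCAAT, and window 2 held CCAAT but not GCAAC. A match of letters is a description and does not show a bound site.

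Over the whole series, library totals ran from 6896673 to 9482453 estimated counts, and from 3087992 to 5085019 outside ribosomal RNA. Levels are given as CPM, in which each library's counts are put on one scale by TMM normalisation. Zbtb17, counted over the whole gene, averaged 4.44 ± 0.730 CPM over the MIZ1KO libraries and 4.18 ± 1.89 CPM over the Control libraries (SD), which does not check the label, since the deleted part is not known. Summed over 12 germinal centre B cell genes the level ran from 3516 to 3835 CPM in MIZ1KO and from 3066 to 4139 CPM in Control. Of these, Ms4a1 and Bcl6 were above 100 CPM in every library, while Fas, Gcsam and Mef2b were below it in every library. The groups did not overlap in 6 of the 12, against 19.5% of all genes tested. EdgeR called Cd79a higher and Rgs13 lower. DESeq2 called 3 higher (Cd79a, Cd79b and Mef2b) and 2 lower (Rgs13 and Mybl1), where it called 8.51% of all genes. Summed over 10 light zone genes the level ran from 784 to 858 CPM in MIZ1KO and from 699 to 1000.1 CPM in Control, and over 8 dark zone genes from 462 to 506 CPM in MIZ1KO and from 384 to 458 CPM in Control. TEC models, unspliced transcript models still awaiting experimental evidence, took between 0.544% and 0.923% of non-ribosomal counts in MIZ1KO and between 1.02% and 2.58% in Control, without overlap. Among Control libraries the lowest TEC share was that of replicate 1, at 1.02%.

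None of the 10 class II genes passed the edgeR quasi-likelihood test with p-values adjusted over all genes (0 of 10 at 0.05). Of the 11618 genes, 5.96% were called, 1.9% higher and 4.05% lower in MIZ1KO. At an unadjusted p of 0.05, 4 of 10 passed, against 24.6% of all genes, and these were H2-DMb1, H2-Ob, Cd74 and H2-DMb2. DESeq2 called 2 of the 10, Cd74 higher and H2-DMb1 lower, where it called 8.51% of 12852 genes. Limma on the deposited log2 values called 0 of the 10 and 4.73% of all genes. Across the 10 genes, all protein-coding, the median log2 fold change, MIZ1KO over Control, was 0.22, with 6 of them above 0. Over all genes tested the median was -0.03, with 47.7% above 0, and over the protein-coding genes tested it was 0.03. The libraries of the groups did not overlap in 2 of the 10, Cd74 and H2-Ob, while 19.5% of all genes tested had no overlap, 8.74% with MIZ1KO above and 10.8% with MIZ1KO below. The share of members without overlap was thus near the background.

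**Figure D1:**
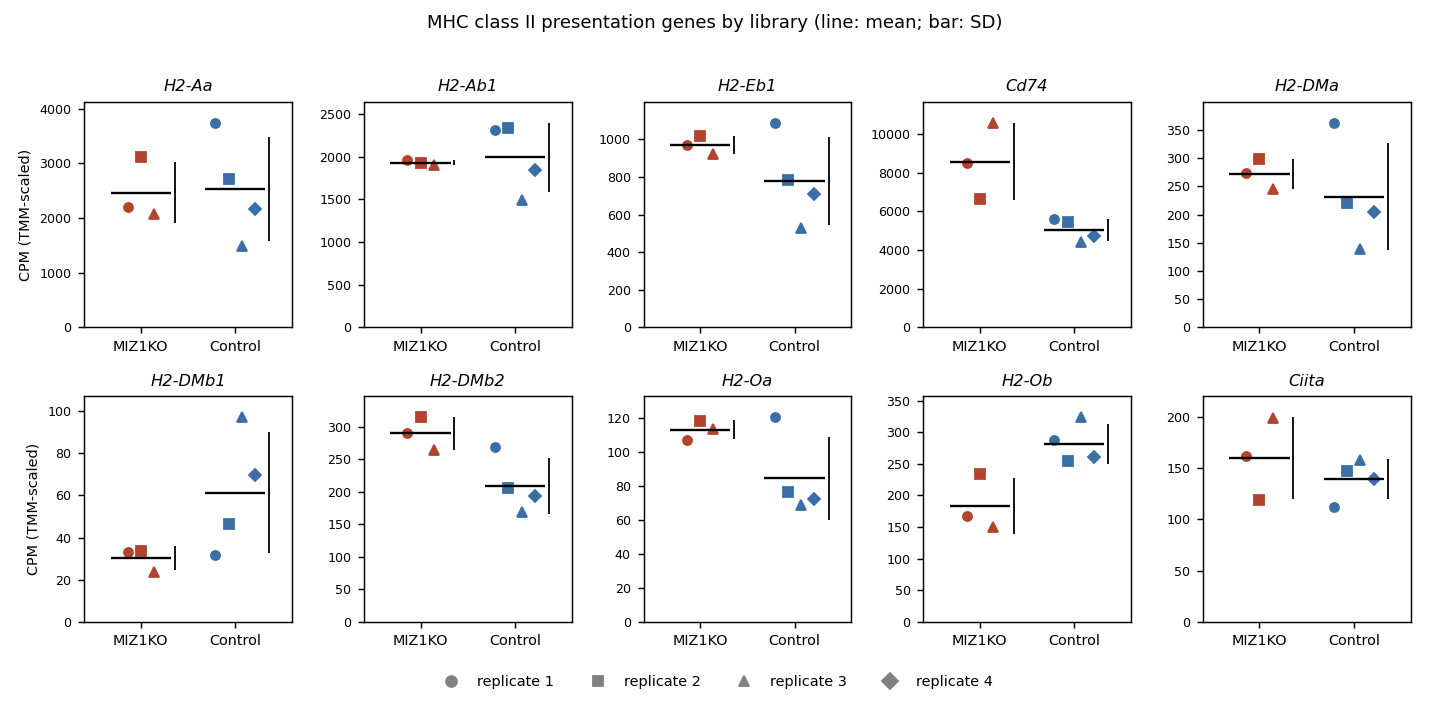
Level of each class II presentation gene in every library, in CPM on a linear axis that starts at 0, with MIZ1KO (n = 3) left of Control (n = 4); marker shapes give the replicate, the line the mean and the bar the SD. Cd74 lies higher in all MIZ1KO libraries than in any Control library, H2-Ob lower, and the other genes overlap.

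**Figure D2:**
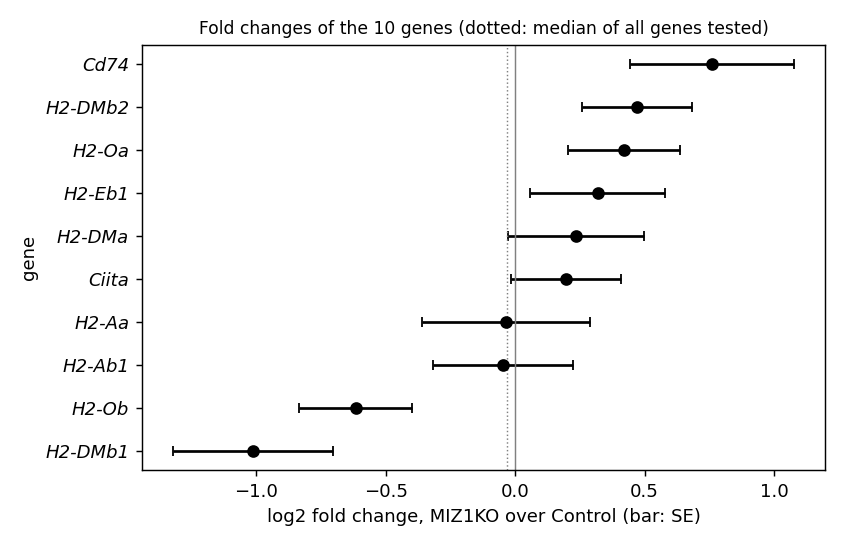
Log2 fold change of MIZ1KO over Control with its SE for the 10 genes, from edgeR, with 0 as a solid line and the median of all genes tested, -0.03, as a dotted one. Values ran from -1.01 for H2-DMb1 to 0.76 for Cd74, and none passed an adjusted p of 0.05.

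Cd74 encodes the invariant chain, and it was the most abundant of the 10 transcripts. The gene (ENSMUSG00000024610) lies on chromosome 18 from 60803848 to 60812652 in GRCm38. Cd74 measured 8478, 6642 and 10594 CPM in MIZ1KO replicates 1, 2 and 3, against 5599, 5460, 4437 and 4724 CPM in Control replicates 1 to 4. Every MIZ1KO library lay above every Control library, with the nearest pair being MIZ1KO replicate 2 and Control replicate 1. Cd74 averaged 8571 ± 1978 CPM over the 3 MIZ1KO libraries and 5055 ± 563 CPM over the 4 Control libraries (SD). Its log2 fold change was 0.76 ± 0.32 (SE) with an adjusted p of 0.148 in edgeR, so the difference did not pass. With DESeq2 the log2 fold change of Cd74 was 0.80 with an adjusted p of 0.00355, and without a filter on low counts edgeR gave 0.80 with an adjusted p of 0.0475. Over all alternatives the adjusted p of Cd74 ran from 0.00355 to 0.391 and its log2 fold change from 0.55 to 0.98, always upward.

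As a share of non-ribosomal counts, Cd74 took 1.74%, 1.31% and 2.14% in MIZ1KO replicates 1 to 3, against 1.03%, 1.08%, 0.991% and 1.01% in Control replicates 1 to 4. The 4 Control libraries were close together and the 3 MIZ1KO libraries spread over a wider range above them. The other 9 genes together took 1.27%, 1.42% and 1.19% in MIZ1KO, against 1.54%, 1.34%, 0.997% and 1.21% in Control, and here the groups overlapped. Of the counts of the 10 genes, Cd74 made up 56.7% ± 8.15 over the 3 MIZ1KO libraries and 45.04% ± 3.96 over the 4 Control libraries (SD).

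None of the chains of the peptide-binding molecules passed the test, and their libraries overlapped between the groups. H2-Aa, the alpha chain of the A molecule (ENSMUSG00000036594, chromosome 17 from 34282744 to 34287823), measured 2212, 3115 and 2075 CPM in MIZ1KO, against 3747, 2706, 1488 and 2171 CPM in Control. The highest and the lowest library were both Control, replicates 1 and 3, and the MIZ1KO libraries lay between them. Its log2 fold change was -0.04 ± 0.32 (SE) with an adjusted p of 0.961 in edgeR. The sign turned under 6 of 17 alternatives, for example to 0.22 without Control replicate 1, and that of H2-Ab1 under 4 of 17. H2-Ab1, the beta chain of the same molecule (ENSMUSG00000073421, chromosome 17 from 34257689 to 34269419), measured 1958, 1925 and 1905 CPM in MIZ1KO, against 2309, 2332, 1491 and 1842 CPM in Control. Its log2 fold change was -0.05 ± 0.27 with an adjusted p of 0.937 in edgeR, and the MIZ1KO libraries again fell within the Control range.

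H2-Eb1 encodes the beta chain of the E molecule (ENSMUSG00000060586, chromosome 17 from 34305867 to 34316674). It measured 970, 1019 and 921 CPM in MIZ1KO, against 1089, 784, 530 and 708 CPM in Control. The MIZ1KO libraries were close together, above Control replicates 2 to 4 and below Control replicate 1. For H2-Eb1 the log2 fold change was 0.32 ± 0.26 (SE) with an adjusted p of 0.483 in edgeR. Its partner, the E alpha chain, is annotated in GRCm38 as the polymorphic pseudogene H2-Ea-ps, which had 0 counts in 6 libraries and 10 counts in Control replicate 4. The near relative H2-Eb2 was low, at 16.0 ± 0.260 CPM over the 3 MIZ1KO libraries and 20.0 ± 3.01 CPM over the 4 Control libraries (SD).

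The H2-DM catalyst is built from an H2-DMa chain and either of the beta chains H2-DMb1 and H2-DMb2. H2-DMa (ENSMUSG00000037649, chromosome 17 from 34119541 to 34139101) measured 273, 298 and 245 CPM in MIZ1KO, against 363, 220, 138 and 205 CPM in Control. As with H2-Eb1, Control replicate 1 was highest and the other Control libraries lay below all MIZ1KO libraries. The H2-DMa log2 fold change was 0.23 ± 0.26 (SE) with an adjusted p of 0.629 in edgeR. Of its exonic length, 10.4% overlaps Brd2 on the opposite strand; the sources used here do not say whether counting used the strand, so reads there may be shared.

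The beta chains pointed in opposite directions. H2-DMb1 (ENSMUSG00000079547, chromosome 17 from 34153072 to 34160230) measured 33.2, 33.8 and 23.6 CPM in MIZ1KO, against 31.5, 46.3, 97.3 and 69.8 CPM in Control. Control replicate 1 lay among the MIZ1KO libraries and the other 3 Control libraries lay above them. H2-DMb1 had a log2 fold change of -1.01 ± 0.31 (SE), the largest in size of the 10, with an adjusted p of 0.0593 in edgeR. H2-DMb2 (ENSMUSG00000037548, chromosome 17 from 34143307 to 34151555) measured 291, 314 and 264 CPM in MIZ1KO, against 269, 206, 169 and 193 CPM in Control. Here too Control replicate 1 lay among the MIZ1KO libraries, while Control replicates 2 to 4 lay below them. H2-DMb2 had a log2 fold change of 0.47 ± 0.21 (SE) with an adjusted p of 0.180 in edgeR. Without Control replicate 1, a fit that called 11.8% of all genes, H2-DMb1 was called at -1.23 (adjusted p = 0.00685, edgeR) and H2-DMb2 at 0.61 (adjusted p = 0.0467, edgeR), and DESeq2 called H2-DMb1 with all libraries (adjusted p = 0.0393).

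H2-DMb1 and H2-DMb2 are close copies of each other. Of all words of 50 bases in the transcripts of H2-DMb1, 22.7% also occur in those of H2-DMb2, and the longest shared run is 221 bases, so reads from it fit both genes. These were the only members whose deposited counts were not whole numbers, for example 310 estimated counts of H2-DMb1 in MIZ1KO replicate 1. Summed over the pair, they measured 324, 348 and 288 CPM in MIZ1KO, against 301, 253, 266 and 263 CPM in Control. The summed log2 fold change was 0.24 ± 0.20 (SE) with an adjusted p of 0.488 in edgeR, an alternative chosen after seeing the data. The ratio of H2-DMb2 to H2-DMb1 counts was 8.75, 9.29 and 11.2 in MIZ1KO, against 8.51, 4.47, 1.73 and 2.77 in Control. All MIZ1KO ratios lay above all Control ratios, though Control replicate 1 came close.

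The H2-O inhibitor is a pair of an H2-Oa and an H2-Ob chain, and here also the chains differed in direction. H2-Ob (ENSMUSG00000041538, chromosome 17 from 34238903 to 34254414) measured 168, 234 and 150 CPM in MIZ1KO, against 288, 254, 324 and 261 CPM in Control. No MIZ1KO library reached the lowest Control library. H2-Ob averaged 184 ± 44.4 CPM over the 3 MIZ1KO libraries and 282 ± 31.7 CPM over the 4 Control libraries (SD). Its log2 fold change of -0.62 ± 0.22 (SE) did not pass, with an adjusted p of 0.0936 in edgeR. Over all alternatives the log2 fold change of H2-Ob ran from -0.76 to -0.42, always downward, and none of 17 passed, with adjusted p-values from 0.0543 to 0.345.

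H2-Oa (ENSMUSG00000024334, chromosome 17 from 34092340 to 34095234) measured 107, 118 and 113 CPM in MIZ1KO, against 121, 76.2, 68.6 and 72.2 CPM in Control. Control replicate 1 was the highest of all libraries and the other Control libraries lay below every MIZ1KO library. H2-Oa had a log2 fold change of 0.42 ± 0.22 (SE) with an adjusted p of 0.238 in edgeR. Without Control replicate 1 the log2 fold change of H2-Oa was 0.64 with an adjusted p of 0.0321 (edgeR), so this library decided whether it passed. The antisense model BC051537 covers 22.8% of the exonic length of H2-Oa and averaged 0.166 CPM in MIZ1KO and 0.746 CPM in Control.

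The count of H2-Oa and H2-Ob together, divided by that of H2-DMa, H2-DMb1 and H2-DMb2, was 0.460, 0.545 and 0.493 in MIZ1KO, against 0.615, 0.700, 0.973 and 0.712 in Control. The ratio of inhibitor to catalyst counts was thus lower in all MIZ1KO libraries than in any Control library. Its means were 0.499 ± 0.0428 over the 3 MIZ1KO libraries and 0.750 ± 0.155 over the 4 Control libraries (SD). Counts were not divided by gene length, so this is not a ratio of transcript numbers. H2-Ob, with 5380 exonic bases, weighs more in it than H2-Oa, with 1407. Divided by exonic length, H2-Oa averaged 80.3 CPM per kb in MIZ1KO and 60.0 in Control, and H2-Ob 34.2 and 52.4. On that scale the ratio was not computed. The ratio of H2-Ob to H2-Oa, added after the values were seen, was 1.56, 1.98 and 1.32 in MIZ1KO, against 2.39, 3.34, 4.73 and 3.62 in Control, again without overlap. Also not planned were H2-Eb1 to H2-Ab1 and Cd74 to Ciita, both higher in MIZ1KO without overlap. The former averaged 0.503 ± 0.0238 in MIZ1KO and 0.387 ± 0.0599 in Control, the latter 53.8 ± 1.79 and 37.2 ± 9.18 (SD). How often ratios of other genes separate the groups was not examined. Among the Control libraries in order of rising TEC share, replicates 1, 2, 4 and 3, H2-O to H2-DM and H2-Ob to H2-Oa rose at each step. H2-DMb2 to H2-DMb1 and Cd74 to Ciita fell at each step, while H2-Eb1 to H2-Ab1 did not move in one direction. For all of these ratios Control replicate 1 was nearest to MIZ1KO. The TEC share did not overlap between the groups, so it and the genotype cannot be told apart. The ratios were not tested, since the genes were chosen with earlier results of these data known.

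**Figure D3:**
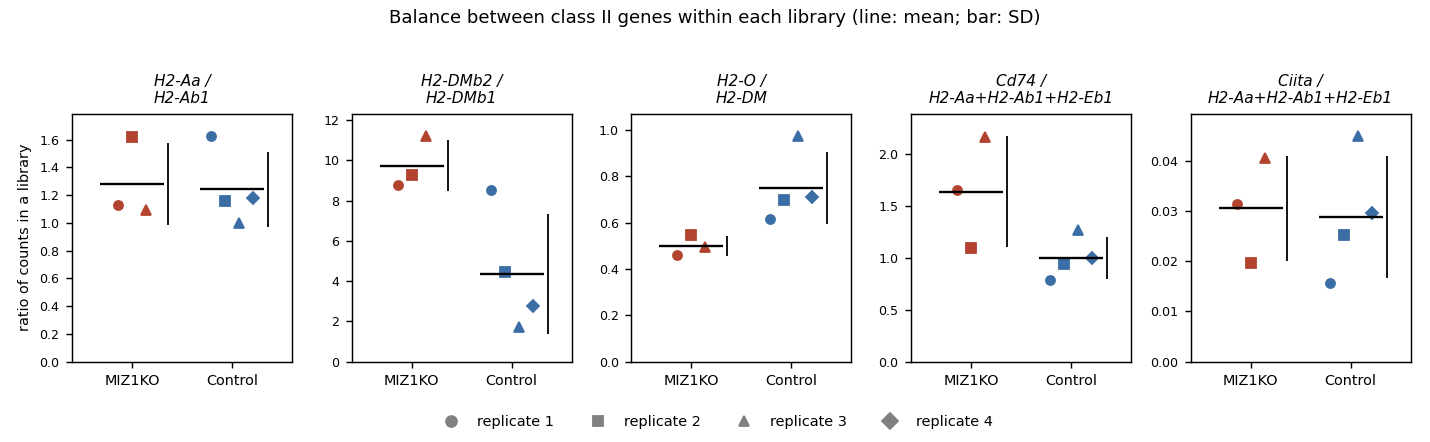
Ratios of counts within each library on linear axes from 0, MIZ1KO (n = 3) left of Control (n = 4), with the mean as a line and the SD as a bar; H2-O is H2-Oa plus H2-Ob, and H2-DM is H2-DMa plus H2-DMb1 plus H2-DMb2. The ratio of H2-DMb2 to H2-DMb1 is higher and that of H2-O to H2-DM lower in every MIZ1KO library than in any Control library, while the other 3 ratios overlap.

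For the A molecule the ratio of alpha to beta chain counts, H2-Aa to H2-Ab1, overlapped between the groups, at 1.28 ± 0.294 over the 3 MIZ1KO libraries and 1.24 ± 0.268 over the 4 Control libraries (SD). The ratio of Cd74 to the summed counts of H2-Aa, H2-Ab1 and H2-Eb1 was 1.65, 1.096 and 2.16 in MIZ1KO, against 0.784, 0.938, 1.27 and 1.00 in Control. Here MIZ1KO replicate 2 lay below Control replicate 3, so the groups overlapped.

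Ciita encodes the class II co-activator, on chromosome 16 from 10480059 to 10528418 (ENSMUSG00000022504). It measured 162, 119 and 199 CPM in MIZ1KO, against 112, 147, 158 and 140 CPM in Control. The groups overlapped, with MIZ1KO replicate 2 near the lowest Control library. Ciita had a log2 fold change of 0.20 ± 0.21 (SE) with an adjusted p of 0.613 in edgeR, and none of its 17 alternatives passed. Ciita shares 3.5% of its exonic length with Dexi on the opposite strand. Its count over the summed counts of H2-Aa, H2-Ab1 and H2-Eb1 was 0.0306 ± 0.0105 over the 3 MIZ1KO libraries and 0.0289 ± 0.0122 over the 4 Control libraries (SD).

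To compare levels between genes, CPM was divided by the exonic length of the GENCODE model in kilobases. On this scale Cd74 stood at 5105 ± 1178 CPM per kb over the 3 MIZ1KO libraries and 3011 ± 335 CPM per kb over the 4 Control libraries (SD), and was above every other member in 7 of 7 libraries. Averaged over the 7 libraries the order was Cd74 (3908 CPM per kb), H2-Ab1 (766), H2-Aa (659), H2-Eb1 (442), H2-DMb2 (139.5), H2-DMa (72.2), H2-Oa (68.7), H2-Ob (44.6), H2-DMb1 (28.5) and Ciita (15.5). Over all libraries, neighbours in this order were apart in their ranges only for Cd74 over H2-Ab1 and for H2-Eb1 over H2-DMb2. Within libraries, H2-Aa also exceeded H2-Eb1, H2-DMb2 exceeded H2-DMa and H2-Ob exceeded H2-DMb1 in 7 of 7. H2-Oa exceeded H2-Ob, and H2-DMb1 exceeded Ciita, in 6 of 7. H2-Ab1 exceeded H2-Aa in 5 of 7 libraries, and H2-DMa exceeded H2-Oa in 5 of 7, so these neighbours did not differ beyond their spread. By mean CPM, not divided by length, the members lay between the percentiles 82.1 (H2-DMb1) and 99.97 (Cd74) of all genes tested.

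Among the Control libraries several class II genes followed the share of TEC models. Ordered by that share, Control replicates 1, 2, 4 and 3 had 1.02%, 1.62%, 1.95% and 2.58%. In the same order H2-DMb1 measured 31.5, 46.3, 69.8 and 97.3 CPM, going up at each step, and H2-DMb2 measured 269, 206, 193 and 169 CPM, going down at each step. Going down at each step too were H2-Aa, H2-Eb1, H2-DMa, H2-Oa and Cd74, the last with 5599, 5460, 4724 and 4437 CPM. H2-Ob, with 288, 254, 261 and 324 CPM, H2-Ab1 and Ciita did not change in one direction. Of all genes tested, 8.86% went up and 13.3% went down at each of these steps. The MIZ1KO libraries had lower shares, 0.544%, 0.603% and 0.923%. In that order H2-DMb1 measured 33.2, 33.8 and 23.6 CPM, H2-DMb2 291, 314 and 264 CPM, and Cd74 8478, 6642 and 10594 CPM. None of these genes changed in one direction within MIZ1KO. As a group the MIZ1KO libraries lay above every Control library for Cd74, and on both sides of Control replicate 1 for H2-DMb1 and H2-DMb2. The part of the TEC share in the class II values was not tested beyond a fit with it as covariate. In that fit the direction turned for H2-Eb1 (-0.43), H2-DMa (-0.78), H2-DMb1 (0.26), H2-DMb2 (-0.10) and H2-Oa (-0.17). It stayed upward for Cd74 (0.73, adjusted p = 0.314) and for Ciita (0.75, adjusted p = 0.181, against 0.20 without the covariate), and downward for H2-Ob (-0.66, adjusted p = 0.298), by edgeR. H2-Aa, also still downward, went to -1.07 (adjusted p = 0.0940, edgeR) with the covariate, against -0.04 without it. H2-Ab1 went to -0.50 (adjusted p = 0.442, edgeR), against -0.05. The widest move of the members was that of H2-DMb1, to 0.26 against -1.01 without the covariate. As the TEC share did not overlap between the groups, it and the genotype cannot be told apart.

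**Figure D4:**
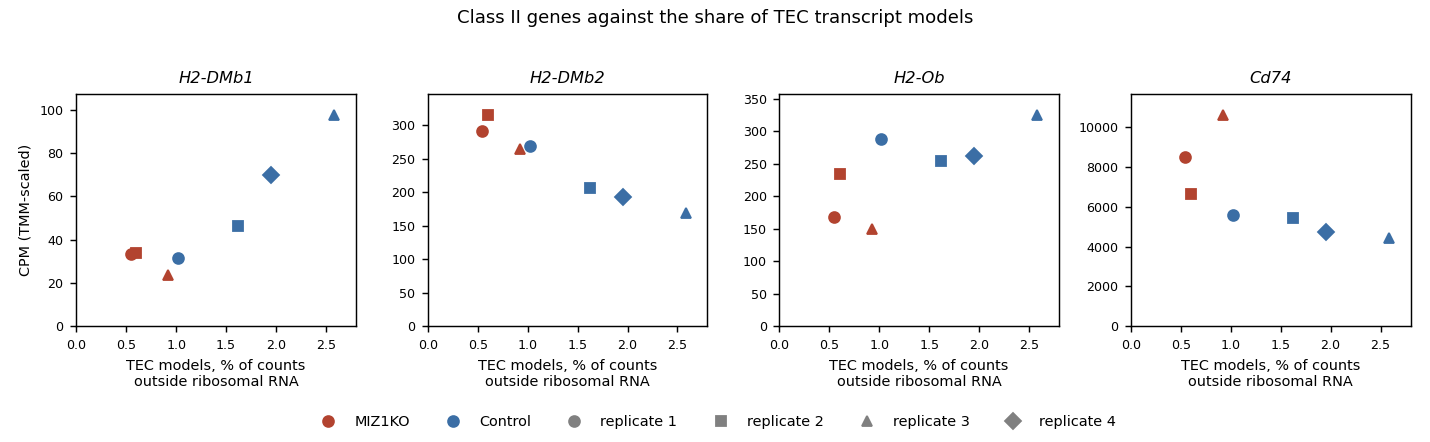
CPM of H2-DMb1, H2-DMb2, H2-Ob and Cd74 in each of the 7 libraries (linear axis from 0) against the percent of counts outside ribosomal RNA in TEC models; colour gives the group and shape the replicate. H2-DMb1 rises and H2-DMb2 falls with the TEC share among the 4 Control libraries, and Control replicate 1, at 1.02%, lies beside MIZ1KO replicate 3, at 0.923%, for both.

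On chromosome 17, 8 members lie within 224335 bases, from H2-Oa to H2-Eb1, interleaved with Brd2, a chromatin reader, and with the class I genes Psmb9, Tap1, Psmb8 and Tap2. The class I genes of the interval had log2 fold changes of 0.11 ± 0.32 (SE) for Psmb9, 0.06 ± 0.22 for Tap1, 0.42 ± 0.24 for Psmb8 and 0.10 ± 0.35 for Tap2, with adjusted p-values from 0.297 to 0.911 (edgeR). Brd2 averaged 144 ± 9.14 CPM over the MIZ1KO libraries and 95.8 ± 9.80 CPM over the Control libraries (SD), and its log2 fold change of 0.58 ± 0.19 (SE) had an adjusted p of 0.0674 in edgeR. The tested genes flanking H2-DMb1 were H2-DMb2 at 0.47 and Psmb9 at 0.11, and those flanking H2-Ob were Tap2 at 0.10 and H2-Ab1 at -0.05.

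**Figure D5:**
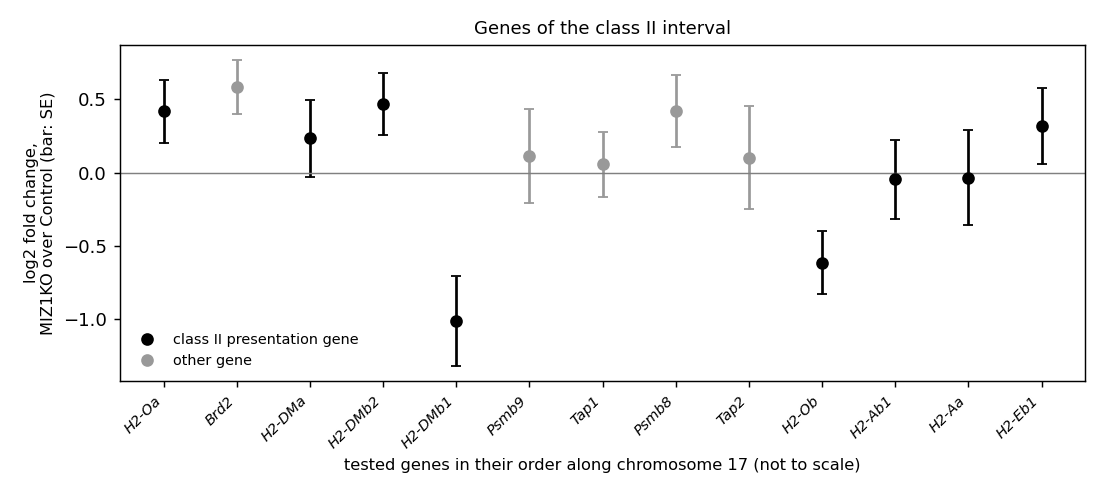
Log2 fold change of MIZ1KO over Control with its SE for the 13 tested genes of the class II interval, in their order on chromosome 17 and not to scale, with class II presentation genes in black and others in grey. H2-DMb1 (-1.01) and H2-Ob (-0.62) lie below their neighbours, and no gene passed an adjusted p of 0.05.

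Over 5 lists of pathway genes around the members, edgeR called 2 of 53 tested genes, or 3.77%, against 5.96% of all genes. The factors that assemble on X and Y boxes had 0 of 7 members called by edgeR, 0 at an unadjusted p of 0.05 and 0 by DESeq2, with a median log2 fold change of 0.32. Nfyb, a subunit of the Y box factor, measured -0.55 ± 0.26 (SE, adjusted p = 0.208, edgeR), and Rfxank, a subunit of the X box factor RFX, 0.71 ± 0.35 (adjusted p = 0.222, edgeR) on the log2 scale. Among 11 genes reported to act on Ciita, 1 rose and 0 fell, with a median of 0.29.

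The gene that rose was Spi1, which encodes the transcription factor PU.1. It measured 47.8, 47.9 and 54.1 CPM in MIZ1KO, against 31.5, 27.9, 24.6 and 30.5 CPM in Control. The groups did not overlap, and the log2 fold change of Spi1 was 0.80 ± 0.21 (SE) with an adjusted p of 0.0360 in edgeR. The Spi1 call, though not the direction, with log2 fold changes of 0.69 to 0.88, was lost without MIZ1KO replicate 1 (adjusted p = 0.125) or 3 (0.103), without Control replicate 2 (0.0946), 3 (0.0579) or 4 (0.0759), with the replicate block (0.0642) and with the TEC share as covariate (0.329). Jak1, a kinase of the interferon gamma receptor, measured 0.48 ± 0.19 (adjusted p = 0.128, edgeR). Counted over the list, 4 of 11 had an unadjusted p under 0.05, against 24.6% of all genes, and DESeq2 called 2 of 11.

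The endosomal enzymes that cut antigen and invariant chain had 0 of 9 tested members called by edgeR and 2, Ctsz and Ifi30, by DESeq2. At an unadjusted p of 0.05, 5 of 9 passed, against 24.6% of all genes. The median log2 fold change was 0.55, with 6 of 9 above 0. Of those that passed unadjusted, Sppl2a was lower in MIZ1KO, without overlap, at -0.51 ± 0.21 (SE, adjusted p = 0.144, edgeR). Ctss measured 0.02 ± 0.28 (adjusted p = 0.974, edgeR). Ifi30, the reductase GILT that opens disulphide bonds of antigens, averaged 206 ± 27.4 CPM over the MIZ1KO libraries and 127 ± 37.8 CPM over the Control libraries (SD), and its log2 fold change of 0.70 ± 0.23 (SE) had an adjusted p of 0.0745 in edgeR. With the TEC share as covariate the log2 fold change of Ifi30 was 0.01. Ctsz, the protease cathepsin Z, measured 0.71 ± 0.23 (adjusted p = 0.0720, edgeR). Without Control replicate 1, edgeR called 4 of 9 of these enzymes and 11.8% of all genes. For class II turnover and traffic, 0 of 7 tested members were called by edgeR and 0 by DESeq2, with a median of 0.21. At an unadjusted p of 0.05, 2 of 7 passed, against 24.6% of all genes. March1, the ubiquitin ligase that drives class II from the cell surface, averaged 82.6 ± 4.64 CPM over the MIZ1KO libraries and 110 ± 15.3 CPM over the Control libraries (SD), at a log2 fold change of -0.41 ± 0.19 (adjusted p = 0.199, edgeR). The tetraspanin gene Cd81 measured 0.56 ± 0.22 (adjusted p = 0.129, edgeR).

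In the class I pathway 1 of 19 members rose and 0 fell, and 18 of 19 had a log2 fold change above 0, against 47.7% of all genes. Their median was 0.29, against 0.03 over the protein-coding genes tested. With the TEC share as covariate 0 rose and 1 fell, Psmb9, at -1.29 (adjusted p = 0.0335, edgeR), against 0.11 without it. Calr, the chaperone calreticulin, measured 213, 191 and 269 CPM in MIZ1KO, against 170, 113, 106 and 125 CPM in Control. All MIZ1KO libraries were above all Control libraries, with a log2 fold change of 0.81 ± 0.22 (SE) and an adjusted p of 0.0365 in edgeR. The Calr call, though not the direction, with log2 fold changes of 0.54 to 0.89, was lost without MIZ1KO replicate 1 (adjusted p = 0.125) or 3 (0.137), without Control replicate 2 (0.114) or 4 (0.0918), with the replicate block (0.0642) and with the TEC share as covariate (0.379). Psmb10, an immunoproteasome subunit, measured 0.73 ± 0.26 (adjusted p = 0.0942, edgeR). At an unadjusted p of 0.05, 4 of 19 passed, against 24.6% of all genes, and DESeq2 called 2, Calr and H2-D1. Without Control replicate 1 edgeR called 5 of 19, in a fit that called 11.8% of all genes.

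Among 6641 other genes with a mean of at least 10 CPM, the profile over the 7 libraries most like that of H2-Aa, H2-Ab1 and H2-Eb1 was that of Gm8226, a processed pseudogene, with a root mean square difference of centred log2 CPM of 0.0452. Next came Fam49b (0.0676), the elongation factor gene Eef1g (0.0702), the chaperonin gene Cct6a (0.0713) and the ribosomal protein gene Rpl7a (0.0724). Among the class II genes outside that trio H2-DMa was nearest, at 0.159 with 166 other genes nearer still, and H2-DMb1 was farthest, at 0.902 with 6437 nearer. Cd74 was at 0.434 and Ciita at 0.484, with 3388 and 4136 genes nearer.

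Lists of marker genes of other cell types were read for the same libraries. In bulk samples, fewer cells of a type and less RNA per cell cannot be told apart. The summed CPM of 9 dendritic cell genes ran from 16.9 to 24.7 in MIZ1KO and from 24.6 to 27.8 in Control, most of it Flt3. Of the defining genes, Itgax and Clec9a reached at most 0.897 CPM in MIZ1KO and 0.400 CPM in Control, Xcr1 at most 0.161 CPM in MIZ1KO and 2.20 CPM in Control, and Zbtb46 lay at 0.997 to 1.82 CPM in MIZ1KO and at 2.23 to 4.06 CPM in Control, without overlap (adjusted p = 0.181, edgeR). For 10 macrophage and monocyte genes the sum ran from 7.72 to 23.4 CPM in MIZ1KO and from 7.30 to 12.6 CPM in Control, with C1qa at 0 in every library. Lyz2 measured 2.04, 13.5 and 16.4 CPM in MIZ1KO, against 2.75 to 3.54 CPM in Control (adjusted p = 0.0712, edgeR), and was called higher by DESeq2. For 8 genes of plasma cells, in which class II is shut off, the sum ran from 364 to 532 CPM in MIZ1KO and from 399 to 737 CPM in Control. Jchain, among the highest of these, measured 69.8 to 126 CPM in MIZ1KO and 104 to 269 CPM in Control (adjusted p = 0.0701, edgeR) and was called lower by DESeq2, while Tnfrsf17 was at 0 in all but 1 library. The 9 T cell genes summed to between 4.72 and 25.5 CPM in MIZ1KO and to between 1.70 and 3.10 CPM in Control, without overlap, and 1 of the 2 tested, Trbc2, was called higher (adjusted p = 0.0190, edgeR), at up to 4.17 CPM in MIZ1KO and up to 0.393 CPM in Control. Resting B cells, which also carry class II, were represented by 9 genes with sums from 409 to 471 CPM in MIZ1KO and from 351 to 437 CPM in Control, above the levels of Ciita, H2-Oa and both H2-DM beta chains. The part of these other cell types in the class II values was not tested.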

How the data were processed

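The 7 libraries were grouped by the genotype label, with replicate numbers from the titles. One deposited table holds expected counts, RSEM's estimates per gene, with no normalization by the authors; STAR 2.5.2, RSEM 1.3.0 and GRCm38 come per the submitters' processing notes. Another holds log2 values deposited by the authors, variance-stabilised going by its name; those notes name DESeq2 1.18.1. Strand setting and handling of shared reads were not found in the sources used here. GENCODE vM21 (GRCm38) gave symbols and coordinates for 48435 of 48795 identifiers; promoter sequences are RefSeq's.

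Counts were rounded, filtered with filterByExpr, scaled by TMM and tested in R 4.3.3 with edgeR 4.0.16 (glmQLFit, robust; glmQLFTest, two-sided), with Benjamini-Hochberg adjustment over 11618 genes and SEs from the F statistic; log2 CPM for likeness used a prior count of 2. Alternatives were DESeq2 1.42.0, limma 3.58.1 on the deposited log2 values, other scaling, filters and gene classes, the TEC share as covariate, a replicate block, and each library left out. Libraries of a group differed by at least 10.5 in chi-square per degree of freedom, so each counted once.

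Members and gene lists were chosen with earlier results of these data known. Named were all members and, per pathway list, the genes called, filled up by smallest p to 2 where fewer passed, and the 5 genes of most alike profile. For lists describing the sort, edgeR called 1 higher and 1 lower of 12 germinal centre genes, 0 of 10 light zone, 1 higher of 8 dark zone, 0 of 9 resting B cell, 0 of 6 plasma cell, 0 of 2 dendritic cell, 0 of 3 macrophage, and 0 of 5 erythroid genes, and no follicular dendritic cell gene was tested.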

Additional observations from a re-analysis of the deposited data

Results flagged for a closer look

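H2-Oa, the alpha chain of the H2-O inhibitor, measured 121 CPM in Control replicate 1, while the other 3 Control libraries lay between 68.6 and 76.2 CPM, so this library stood far from the rest of its group. The gap took 0.854 of the group's whole range. The same library had the lowest TEC share of the Control group, at 1.02%, and with that share as covariate the log2 fold change of H2-Oa was -0.17, against 0.42 without it, in a fit where share and genotype cannot be told apart.

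H2-Ea-ps, the pseudogene model of the E alpha chain, had 10 counts or 1.00 CPM in Control replicate 4 and 0 counts in each of the other 6 libraries. Chance marks about 1 in 20 such groups where values vary continuously, and 31 quantities were examined here, of which 2 were marked. That rate does not hold for H2-Ea-ps, since with all other Control libraries at 0 any count spans the whole range.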

How the results depend on the processing

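The count of class II genes called stayed at 0 of 10 under 7 of 9 alternatives that kept all libraries, became 1 without a filter on low counts (Cd74) and 2 with DESeq2 (Cd74 and H2-DMb1). Leaving out single libraries gave between 0 and 3, the 3 being H2-DMb1, H2-DMb2 and H2-Oa without Control replicate 1. Over all genes the count of 692 became 1094 with DESeq2, 315 among protein-coding genes only and 297 with the TEC share as covariate, and ran from 39 (without MIZ1KO replicate 1) to 1348 (without Control replicate 1) when single libraries were left out. The cause was not tested.

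Directions turned for H2-Aa without a filter (0.013), on the deposited log2 values (0.033), without ribosomal RNA genes (0.015), and without MIZ1KO replicate 1 or 3 or Control replicate 1, where leaving out single libraries gave -0.175 to 0.22. H2-Ab1 turned on the deposited log2 values (0.0034) and without MIZ1KO replicate 2 or Control replicate 1 or 2, where leaving out single libraries gave -0.121 to 0.034. With the TEC share as covariate H2-Aa went to -1.07 (adjusted p = 0.0940, edgeR) and H2-Ab1 to -0.50 without turning, while H2-Eb1 turned to -0.43, H2-DMa to -0.78, H2-DMb1 to 0.26, H2-DMb2 to -0.10, H2-Oa to -0.17, Cd81 to -0.22 and Psmb10 to -0.32. Of the recomputed fold changes of the 20 named genes, 293 kept direction and side of the threshold, 14 passed anew, 13 no longer passed and 17 turned.

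Whether shared replicate numbers pair the libraries cannot be settled with so few. Deviations from the group means correlated at 0.02, 0.07 and 0.16 for numbers 1, 2 and 3. MIZ1KO replicates 1 and 3 correlated best with the Control library of their own number, and MIZ1KO replicate 2 with Control replicate 1 (0.13). With the replicate block 476 genes and 0 class II genes were called, and the calls of Spi1 and Calr ended. Depth limits H2-DMb1 most, at 147 to 743 counts per library.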
